A study of Mus musculus with 192 samples.

Results

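Cytosolic ribosomal proteins are the protein parts of the ribosome that translates nuclear-encoded messenger RNA. The genes described here are the protein-coding genes whose symbol begins with Rpl (large subunit) or Rps (small subunit) followed by a digit, together with Rpsa, without the Rps6k kinases and without names marked as pseudogenes. The rule found 83 genes among the 41128 gene features of the count table, of which 79 passed the filter on low counts in each of the 3 regimens. The 4 that did not pass were Rpl3l, Rpl10l, Rpl39l and Rps27. The rule also takes in Rps19bp1, which encodes a binding partner of the Rps19 protein rather than a ribosomal protein, and Rpl7l1, a relative of Rpl7 that acts in ribosome assembly. It leaves out, among others, the stalk proteins Rplp0, Rplp1 and Rplp2, Fau, whose product is a fusion protein, and Rack1, which are given in a list of their own.

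Each ribosome holds about one copy of each of these proteins, and cells keep their production in step. Their messenger RNAs are short, abundant and stable, and begin with a terminal oligopyrimidine (TOP) tract, through which the kinase complex mTORC1, acting with Larp1, sets how strongly they are translated. Neurons also carry ribosomal protein messenger RNAs into axons and dendrites. In bulk tissue, fewer cells of a type and less RNA per cell cannot be told apart.

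PolyA-selected RNA was sequenced from mouse hippocampus in 192 libraries, each taken as 1 mouse, in 24 groups of 8 mice, 4 of each labelled sex. The groups cross 2 genotypes, zQ175 (a knock-in mouse model of Huntington's disease with an expanded CAG repeat in Htt) and WT, with 4 treatments: HTT-10150, a small interfering RNA (siRNA) against full-length HTT; HTT-634.486, a pair of siRNAs against the short transcript HTT1a; NTC, a non-targeting siRNA; and no treatment. The 3 regimens differ in age. Mice of 2[4]6 were 2 months old when treated and 6 months old when tissue was taken. Those of 6[4]10 were 6 months old when treated and 10 months old at the end, and those of 2.6[8]10 were treated when 2 and again when 6 months old, with tissue from animals of 10 months. Untreated mice carry no siRNA at all, so they differ from treated mice in the procedure as well as in the siRNA. The labels used here give neither its dose and route nor the number of zQ175 alleles a mouse carried.

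Libraries held 8441632 to 55955529 counts in 2[4]6, 13376471 to 41269383 in 6[4]10 and 12999992 to 65748954 in 2.6[8]10. Htt, the target, had a median of 95.25 CPM (counts-per-million, scaled with TMM factors) in zQ175 mice given HTT-10150 in 2[4]6 (range 64.13 to 171.3), against 147.1 CPM under NTC (121.5 to 174.9). The gene fell in this comparison (log2 change -0.44, SE 0.114, adjusted p = 0.0244). This was its smallest fall in HTT-10150 over NTC. In zQ175 the change was -0.69 in 6[4]10 and -0.92 in 2.6[8]10. In WT it was -0.95 in 2[4]6, -0.55 in 6[4]10 (not called) and -1.27 in 2.6[8]10. All 12 hippocampal neuron, 10 astrocyte, 10 oligodendrocyte, 11 microglia, 12 endothelial and 9 choroid plexus markers listed averaged over 1 CPM in every group. The summed choroid plexus markers ran from 24.01 to 12090 CPM over libraries. In 3 of the 192 libraries Xist and Y-linked transcripts did not match the labelled sex. Both went against the label in male_4 and female_4 of 6[4]10 zQ175 HTT-10150. In female_2 of 2.6[8]10 WT NTC both were near 0 (Xist 0.6867 CPM, Y-linked 0.6104 CPM), so only Xist was against the label. Leaving the 3 libraries out changed no count of ribosomal protein genes called.

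How counts were divided between a ribosomal protein gene and its copies bears on every value that follows. The mouse genome holds many processed copies of these short messenger RNAs, and 421 genes outside the set had a transcript at least 95% identical to one of 69 of the 83 genes. Only 10 of these copies averaged over 10 CPM, and together the copies held 998.8 CPM, against 12460 CPM for the 83 genes. In 7 genes, however, more counts stood on copies outside the set than on the gene itself, one of them being Rpl10l, which had none of its own; Rps27, whose counts stood on a copy inside the set, comes in addition. Rpl5, which with Rpl11 and a small ribosomal RNA forms a particle that can bind the p53 regulator Mdm2, averaged 36.4 CPM, while its 100% identical copy Gm15500 (chromosome 7, positions 114705217 to 114706235, GRCm38) averaged 196.2 CPM. Rpl10, an X-linked protein added late in assembly of the large subunit, averaged 56.1 CPM, against 148.8 CPM for Rpl10-ps3. Rpl12 averaged 18.5 CPM (Gm10275, 130.5 CPM), Rpl27a 45.9 CPM (Gm7536, 129.3 CPM) and Rpl27 31.3 CPM (Rpl27-ps3, 78.03 CPM). Low values of these genes are therefore levels of the counted locus, not of the message as a whole. Rps12 was the extreme case among genes with counts: it had reads in 119 of 192 libraries and a mean of 2.91 CPM, against 124.8 CPM for the identical Rps12-ps3, and its fitted changes ran from -2.18 to 3.56 on the log2 scale with none called.

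**Figure D1:**
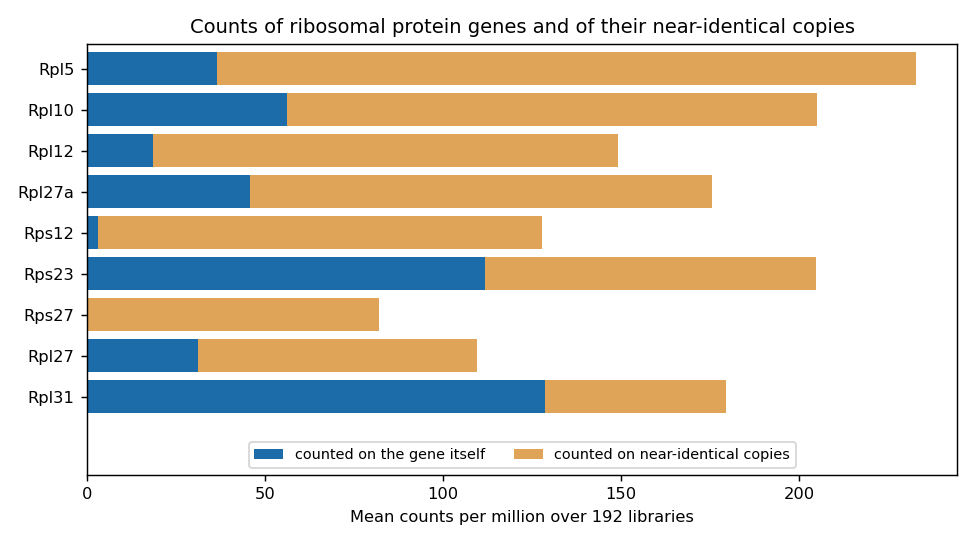
Mean CPM over 192 libraries (horizontal axis) of the 9 ribosomal protein genes with over 10% of their summed counts, and over 10 CPM, on near-identical copies, the copy of Rps27 being itself one of the 83 genes. Blue bars are counts on the gene itself and orange bars counts on its copies; Rps27 has no counts of its own, and Rpl5 has 36.4 CPM of its own beside 196.5 CPM on copies.

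Rps27, a zinc-binding protein of the small subunit, had 0 counts in all 192 libraries. Its copy Rps27rt on chromosome 9, which the rule counts as a ribosomal protein gene because it is annotated as protein-coding, averaged 82 CPM (59.6 to 131). The first 90 coding bases show why the 2 loci cannot be separated by coding reads, and that the relative Rps27l can. They are given from GENCODE vM21 transcripts (GRCm38), 5′ to 3′, with capitals where Rps27l has another base than Rps27. The genes lie on the minus strand at chr3:90212522-90213651 (Rps27), on the minus strand at chr9:114982366-114982739 (Rps27rt) and on the plus strand at chr9:66946086-66949516 (Rps27l).
Rps27: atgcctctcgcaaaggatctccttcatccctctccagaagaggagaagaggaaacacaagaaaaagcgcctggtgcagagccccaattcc
Rps27rt: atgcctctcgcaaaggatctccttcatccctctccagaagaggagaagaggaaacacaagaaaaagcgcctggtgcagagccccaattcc
Rps27l: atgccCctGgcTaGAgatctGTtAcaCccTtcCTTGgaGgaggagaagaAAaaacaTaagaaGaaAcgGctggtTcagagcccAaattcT
Rps27 and Rps27rt had 0 differences over the whole coding sequence. Rps27l differed from Rps27 at 24 of these 90 bases and at 61 bases of the whole (76.1% identity), and averaged 8.7 CPM with reads in all 192 libraries.

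Ribosomal protein genes took 1.02% to 1.48% of a library's counts, with a mean of 1.25% ± 0.0844 (SD, n = 192 libraries). The mean share was 1.22% ± 0.0853 in 2[4]6, 1.22% ± 0.0792 in 6[4]10 and 1.3% ± 0.0624 in 2.6[8]10 (SD, n = 64 libraries each). The spread over single libraries within a regimen was thus about as wide as the distance between regimens. These shares are descriptions and were not tested.

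Per transcript length, the highest levels over 192 libraries were those of Rpl13a, a large subunit protein and host of several small nucleolar RNAs, with 1574 ± 111 TPM (transcripts-per-million, a length-scaled level computed from the counts and the median length of a gene's protein-coding transcripts; SD over libraries), Rpl3, which lies next to the peptidyl transferase centre, with an SD of 52.9 TPM, and Rps15 with 733.7 ± 59.9 TPM. The library ranges of the first 2 did not overlap (1320 to 1920 TPM for Rpl13a, 861 to 1260 TPM for Rpl3). All these levels and their order depend on the length used. Rpl13a has a median length of 495 and a longest transcript of 1047 bases, and Rpl3 has 816 and 1351 bases. Not scaled by length, Rpl13a averaged 473.5 CPM, below the 515.9 CPM of Rpl3. Levels by the longest transcript were not computed. Rpl41, which encodes the smallest ribosomal protein, followed with 661.9 ± 59 TPM and overlapped Rps15. Most of the set lay lower: Rps29, a short zinc-binding protein, had 537.7 ± 67.5 TPM, Rps3, which lines the messenger RNA entry channel, 481.5 ± 28.4 TPM, Rpl4, part of the peptide exit tunnel, 470.2 ± 21.9 TPM, and Rps6, the substrate of the S6 kinases, 454.7 ± 28 TPM. Rpl11 had 427.8 ± 32.4 TPM, Rpl38, which in mouse is known for its role in axial patterning, 376.2 ± 45.6 TPM, and Rps4x, X-linked, 355 ± 18.7 TPM. Rps19, the gene most often mutated in human Diamond-Blackfan anaemia, had 285.1 ± 24.3 TPM and Rpsa, also known as the laminin receptor precursor, 284.7 ± 18.7 TPM, so these 2 do not differ beyond their spread. Rpl39, at the exit of the peptide tunnel, had 153.3 ± 18.3 TPM and Rpl22, whose loss in mouse blocks T cell development, 80 ± 5.04 TPM.

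Among the paralogs, Rpl36al had 118.4 ± 15.1 TPM, against 267.3 ± 31.9 TPM for X-linked Rpl36a. Rpl22l1 had 94.7 ± 7.76 TPM, above the 80 TPM of Rpl22, with overlapping ranges. Rpl7l1 had 47.6 ± 3 TPM and Rps27l 28.7 ± 5.02 TPM. The muscle paralog Rpl3l had 0.332 ± 0.168 TPM and reads in 185 libraries, Rpl39l, known from the testis, had 0.135 ± 0.179 TPM and reads in 110 libraries, and Rpl10l, which in mouse stands in for Rpl10 in male meiosis, had no read in any library. These 3 paralogs, with Rps27, had the lowest values of the set. Rps4l, annotated as a transcribed pseudogene and so outside the set, had group medians between 15.3 and 22.08 CPM.

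In untreated mice no ribosomal protein gene was called between zQ175 and WT. With edgeR 0 of 79 passed an adjusted p of 0.05 in each regimen, where 4.15% of all genes did in 2[4]6, 11.5% in 6[4]10 and 11.1% in 2.6[8]10. At an unadjusted p under 0.05 there were 1, 7 and 4 genes in that order of regimens, and DESeq2 called 0, 1 and 0. Of all genes, 2554 of 16575, 3851 of 16374 and 3771 of 15852 had such a p. The median log2 change over the 79 genes was 0.01, 0.04 and -0.02, against a median over all genes of 0.00, 0.01 and 0.00, with a median SE of a single gene between 0.0444 and 0.0526. The share of counts had a median of 1.19% in untreated zQ175 mice (1.09% to 1.29%), against 1.16% in untreated WT mice (1.09% to 1.23%) in 2[4]6, and the groups overlapped nearly whole.

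Under NTC, 8 genes were higher in zQ175 than in WT in 2[4]6 and none was lower. That is 10.1% of the 79 genes, against 5.23% of all genes called in either direction and 2.25% called higher in zQ175. The call of smallest adjusted p was Rps3, with 263.2 to 314.8 CPM in zQ175 NTC mice (median 300.2), against 240.7 to 312 CPM in WT NTC mice (median 256.5). Its log2 change was 0.17 (SE 0.0392, adjusted p = 0.00308). The WT library female_3, at 312 CPM, lay near the top of the zQ175 range, and the groups overlapped. Rps2, which with Rps3 lines the entry channel, had 334.8 to 381 CPM in zQ175 NTC mice (median 367.3), against 308.6 to 349.3 CPM in WT NTC mice (median 321.4; log2 change 0.16, SE 0.0408, adjusted p = 0.0117). Rps9 had 164.9 to 185.1 CPM in zQ175 NTC mice (median 180.3), against 144.4 to 169.9 CPM in WT NTC mice (median 159.2; log2 change 0.15, SE 0.042, adjusted p = 0.0171). For both genes the groups overlapped only where the highest WT libraries reached the lowest zQ175 ones. Rpl3 rose by 0.13 (adjusted p = 0.0171), and Rpl11, Rpl7a, Rpl39 and Rpl13a were the others called, with log2 changes from 0.13 (Rpl7a) to 0.23 (Rpl39).

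Markers of other cell types moved in the same comparison of 2[4]6: 3 of 12 endothelial (median -0.21), 5 of 12 hippocampal neuron (median -0.23) and 1 of 10 astrocyte markers were lower in zQ175, 1 of 11 microglia markers was higher, and 0 of 10 oligodendrocyte and 0 of 9 choroid plexus markers were called. The summed endothelial level was 216.6 to 283.6 CPM in zQ175 NTC mice, against 278 to 334.6 CPM in WT NTC mice, and the summed neuron level 4715 to 5910 CPM in zQ175 NTC mice, against 5529 to 6808 CPM in WT NTC mice. In untreated mice of 2[4]6, 6 of 12 neuron (median -0.20) and 3 of 10 astrocyte markers were lower in zQ175 as well. There 0 of 12 endothelial markers were called (median 0.04). The part of these markers in the 8 calls was not tested.

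Fewer genes were called in the later regimens, and whether regimens differ was not tested. In 6[4]10 the only call was Rps4x, with a log2 change of 0.12 in zQ175 NTC mice over WT NTC mice (SE 0.0397, adjusted p = 0.0365), where 14.7% of all genes were called. In 2.6[8]10 0 of 79 were called, where 10.4% of all genes were. Of the 79, 4 had an unadjusted p under 0.05, against 3605 of 15852 genes over all. DESeq2 called 1, and 69 of 79 had a negative change (median -0.04). In 2[4]6 with females alone 0 genes were called and the median over 79 genes was 0.01, and with males alone 5 were called, 2 of them among the 8, and the median was 0.19; the difference between the sexes was not tested. Without replicate 4 of each sex 0 were called, and without replicate 1 there were 2. For these fits on fewer libraries, the share of all genes called is not given here.

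NTC over untreated mice gave no call in any regimen or genotype with edgeR, although most ribosomal protein genes had a positive change. In zQ175, 78 of 79 genes had a positive change in 2[4]6 (median 0.15), 78 in 6[4]10 (median 0.07) and 69 in 2.6[8]10 (median 0.04), and 0.0302%, 0% and 1.02% of all genes were called. At an unadjusted p under 0.05 there were 70, 5 and 1 genes, and DESeq2 called 34, 0 and 0. Such a p was found in 2512 of 16575, 612 of 16374 and 1698 of 15852 genes over all. The share of all genes that DESeq2 called is not given here. In WT, 77, 77 and 75 of 79 had a positive change (medians 0.05, 0.06 and 0.05), 0%, 0% and 0.694% of all genes were called, 0, 7 and 10 ribosomal protein genes had an unadjusted p under 0.05, and DESeq2 called 0 in each. The number of all genes with such a p was 614, 1244 and 1816. The smallest adjusted p in zQ175 of 2[4]6 was 0.077 (Rpl11), which had 175.4 to 212.4 CPM in NTC mice (median 199.2), against 152.6 to 187.6 CPM in untreated mice (median 176.6). Without replicate 3 of each sex edgeR called 30 genes in that comparison, all higher under NTC. The share of all genes called in that fit is not given here. With all libraries, 0 of 12 endothelial markers were called in this comparison, all with a negative change (median -0.24).

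The library shares show where the zQ175 NTC group of 2[4]6 stood. Its 4 males held 1.33% to 1.41% of their counts in ribosomal protein genes and its 4 females 1.24% to 1.26%, with no overlap. Untreated zQ175 males held 1.09% to 1.28% and females 1.09% to 1.29%. The NTC males therefore lay above every untreated zQ175 mouse of the regimen, and the NTC females within the untreated range. Among zQ175 mice given HTT-634.486 the range was 1.18% to 1.44%, which spans that of NTC.

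**Figure D2:**
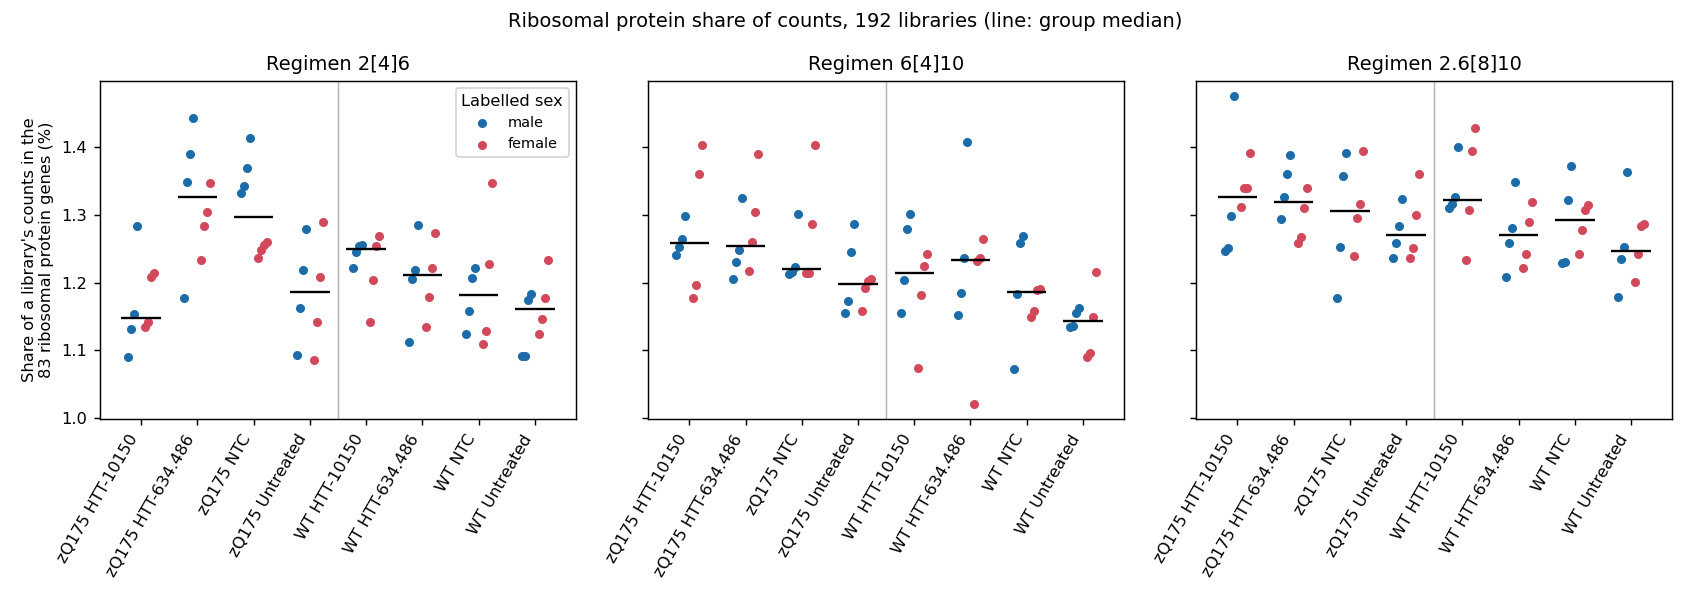
Share of a library's counts in the 83 ribosomal protein genes (vertical axis, percent, not starting at 0), by group, 1 panel a regimen, with 1 point a library coloured by labelled sex and a line at the median of the 8 mice. In 2[4]6 the zQ175 NTC males lie at 1.33% to 1.41%, above the females of that group at 1.24% to 1.26%.

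HTT-10150 against NTC in zQ175 gave more calls in 2[4]6 than any other of the 33 comparisons did with edgeR. Here 31 of 79 ribosomal protein genes were lower under HTT-10150 and 0 higher, that is 39.2%, against 3.57% of all genes called in either direction and 1.06% called lower. Of the 79 genes 78 had a negative change, with a median of -0.15, against 0.00 over all genes tested. The genes move together over libraries, as given below, so the 78 are not separate observations. Both subunits took part: 18 of 46 large subunit genes and 12 of 32 small subunit genes fell, the other call being Rps19bp1.

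Rpl13a had the smallest adjusted p. It stood at 389.6 to 469.9 CPM in zQ175 HTT-10150 mice (median 433), against 466.1 to 542 CPM in zQ175 NTC mice (median 501.1), a log2 change of -0.23 (SE 0.0492, adjusted p = 0.00574). The 2 ranges overlapped only between 466.1 and 469.9 CPM, and the untreated zQ175 mice spanned both groups (387.3 to 512.4 CPM). Rpl11 stood at 159.1 to 181.4 CPM in zQ175 HTT-10150 mice (median 171.2), against 175.4 to 212.4 CPM in zQ175 NTC mice (median 199.2; log2 change -0.20, SE 0.0428, adjusted p = 0.00584). For Rpl11 the ranges overlapped between 175.4 and 181.4 CPM. Rpl3 stood at 452.7 to 511.9 CPM in zQ175 HTT-10150 mice (median 492.7), against 475 to 614.8 CPM in zQ175 NTC mice (median 540.7; log2 change -0.15, SE 0.0352, adjusted p = 0.0136), with a wide overlap. Rps6 fell by 0.16 on the log2 scale (SE 0.038, adjusted p = 0.0148), with 206.8 to 242.6 CPM in zQ175 HTT-10150 mice against 225.1 to 272 CPM in zQ175 NTC mice.

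Further calls among the genes always described were Rps3 (log2 change -0.15, adjusted p = 0.0203), Rpsa (-0.13, 0.0374), Rps19 (-0.18, 0.0403), Rps4x (-0.12, 0.0439) and the paralog Rpl36al (-0.19, 0.0416). Some of the shortest messages of the set did not pass. Rpl38 (log2 change -0.20, adjusted p = 0.0907) had 64.22 to 89 CPM in zQ175 HTT-10150 mice (median 76.4), against 80.45 to 104.2 CPM in zQ175 NTC mice (median 85.13). Rps29 (-0.21, adjusted p = 0.0703) had 98.85 to 136.7 CPM in zQ175 HTT-10150 mice (median 110.6), against 122.3 to 158.8 CPM in zQ175 NTC mice (median 126). Rpl41 (-0.15, adjusted p = 0.162) had a median of 199.1 CPM in zQ175 HTT-10150 mice against 216.7 CPM in zQ175 NTC mice, and the ranges overlapped for all 3 genes. Rps27l (-0.26), Rpl22l1 (-0.10) and Rpl7l1 (-0.06) were not called.

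Against untreated zQ175 mice the same HTT-10150 mice of 2[4]6 showed no difference that could be called. With edgeR 0 of 79 genes were called (0.00603% of all genes), 0 had an unadjusted p under 0.05, DESeq2 called 0, and the median change was 0.00, with 44 genes negative and 35 positive. Of all 16575 genes, 842 had an unadjusted p under 0.05. The share of counts had a median of 1.15% in zQ175 HTT-10150 mice (1.09% to 1.28%), 1.3% in zQ175 NTC mice (1.24% to 1.41%) and 1.19% in untreated zQ175 mice (1.09% to 1.29%). The comparisons with NTC and with untreated mice share the HTT-10150 libraries, and the comparisons of HTT-10150, of WT and of untreated mice with zQ175 NTC mice share the NTC libraries.

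The other regimens and WT mice gave 1 call in all for HTT-10150 over NTC. In zQ175 of 6[4]10, 0 of 79 genes were called (0.0672% of all genes), and 0 by DESeq2, with a median of 0.00. There 1 had an unadjusted p under 0.05, against 1109 of 16374 genes over all. In zQ175 of 2.6[8]10, Rpl15, a large subunit protein, was lower (log2 change -0.14, SE 0.0365, adjusted p = 0.0431), where 0.871% of all genes were called; its changes were -0.13 in 2[4]6 and -0.08 in 6[4]10, neither called. In WT, 0 of 79 were called in 2[4]6 (0.0664% of all genes), 6[4]10 (0.0183%) and 2.6[8]10 (3.41%), with 1, 0 and 7 genes at an unadjusted p under 0.05 and 0 by DESeq2, and medians of 0.04, 0.03 and 0.05. Over all genes, 980, 1002 and 2758 had such a p. Against untreated zQ175 mice, HTT-10150 gave 0 of 79 calls in 6[4]10 (0.0855% of all genes, median 0.07) and in 2.6[8]10 (1.5% of all genes, median 0.06). DESeq2 called 0 and 1. Of the 79, 9 and 15 had an unadjusted p under 0.05, against 1744 of 16374 and 2383 of 15852 genes over all.

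Whether the HTT-10150 effect differed between zQ175 and WT was tested as an interaction. In 2[4]6 the median of the difference, zQ175 minus WT, was -0.19 with 78 of 79 negative. However, edgeR called 0 of 79, and 0% of all genes. An unadjusted p under 0.05 was found for 66, against 2191 of 16575 genes over all. The smallest adjusted p was 0.103 (Rpl11). DESeq2 called 14, and its share of all genes is not given here. In 6[4]10 and 2.6[8]10, 0 were called (0% and 0.0126% of all genes), and 0 by DESeq2, with medians of -0.04 and -0.02. There 1 and 0 had an unadjusted p under 0.05, against 811 of 16374 and 945 of 15852 genes over all.

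The 31 calls of 2[4]6 rest on several libraries. Without replicate 4 of each sex edgeR called 0, without replicate 1 it called 5, without replicate 3 it called 19 and without replicate 2 it called 23. In males alone 3 genes were called and the median was -0.22; in females alone 0 were called and the median was -0.09, with 76 of 79 genes negative. The share of all genes called in these fits on fewer libraries is not given here. Summing each gene with its copies, over all libraries, gave 33 calls, which included all 31. Endothelial markers moved in the same comparison: 10 of 12 were higher under HTT-10150 (median 0.39, led by Flt1 and Tie1, 2 receptors of vessel endothelium), and their summed level was 292.4 to 371.4 CPM in zQ175 HTT-10150 mice, against 216.6 to 283.6 CPM in zQ175 NTC mice and 277 to 317.8 CPM in untreated zQ175 mice. Of the other markers, 1 of 10 for astrocytes (Slc1a2, a glutamate transporter) and 1 of 11 for microglia (Fcrls) were higher, and 0 of 12 neuron (median 0.13) and 0 of 9 choroid plexus markers (median -0.95) were called. Oligodendrocyte markers summed to 5388 to 7595 CPM in zQ175 HTT-10150 mice, against 6498 to 9943 CPM in zQ175 NTC mice, with 0 of 10 called (median -0.19). The part of these markers in the ribosomal protein result was not tested.

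Transcript length moved with the same libraries. The 83 genes have a median transcript length of 714 bases, and 79.5% of them are under 1000 bases, against a median of 2267 bases and 16.2% for the other 14886 protein-coding genes tested. In the HTT-10150 comparison of 2[4]6 zQ175 mice, other protein-coding genes under 600 bases had a median log2 change of -0.07, those of 600 to 1000 bases -0.06, those of 1000 to 2000 bases -0.04, those of 2000 to 4000 bases 0.01 and those over 4000 bases 0.07. The ribosomal protein genes, at -0.15, lay below the shortest class by this measure of length. When genes were classed by their longest transcript the median under 600 bases was -0.18 (96 genes), so the set then lay above it. By that measure the set still lay below genes of 600 to 1000 bases (-0.13, 545 genes) and of 1000 to 2000 bases (-0.07), classes that also hold genes of the set. A smooth trend on the median length of a gene's transcripts was also taken out, estimated for each library on the genes outside the set. With it, 0 of 79 genes were called in place of 31, the median was -0.08, and 77 of 79 remained negative. Rpl11 then had -0.13 (adjusted p = 0.0558) and Rpl13a -0.15 (adjusted p = 0.0626). For the 8 calls of zQ175 over WT under NTC in 2[4]6 the same correction kept 5 (Rps3, Rps2, Rps9, Rpl11 and Rpl7a), with a median of 0.07 over the set. A trend on the longest transcript, by which other genes under 600 bases moved more, was not fitted. What such a trend would leave was not tested.

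**Figure D3:**
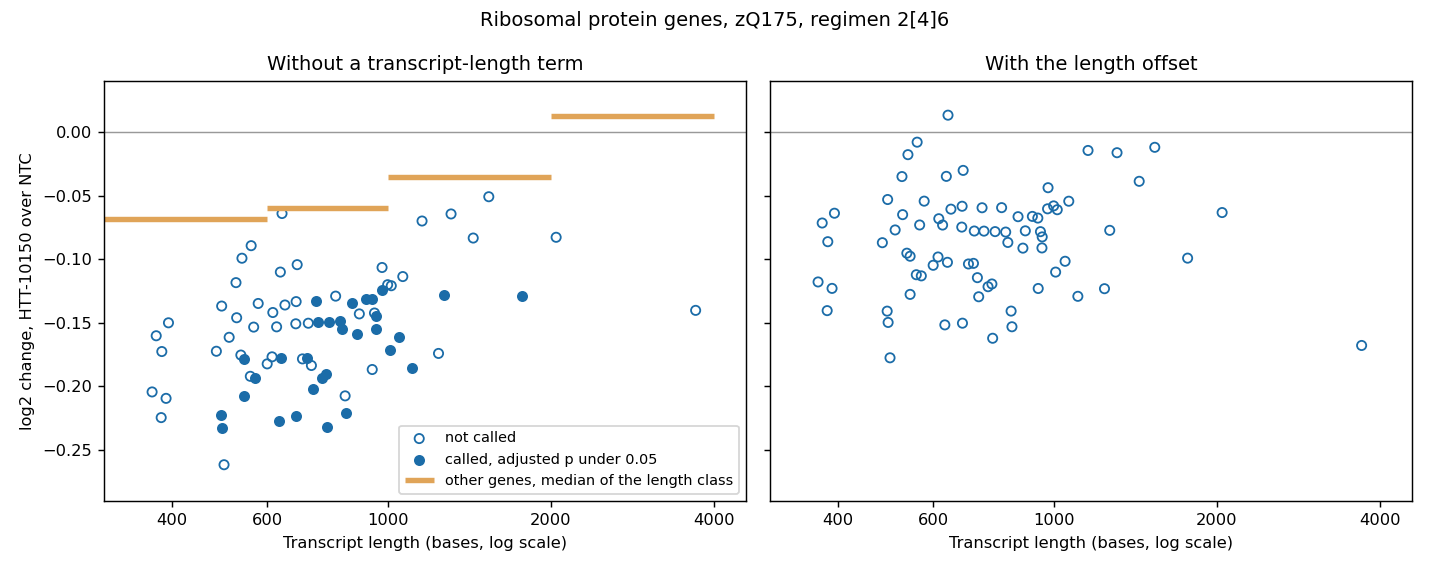
Log2 change of each tested ribosomal protein gene, zQ175 HTT-10150 over zQ175 NTC mice of 2[4]6 (vertical axis), against transcript length (horizontal axis, log scale), without and with the per-library length offset; Rps12, at 1.38, is off the scale and left out. Filled points are called, and orange bars give the median of other protein-coding genes by length class. With no length term 31 genes are called, with it 0, and 77 of 79 stay below 0.

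The length trend ran through all 3 regimens. For each library, the median log2 deviation of ribosomal protein genes from the regimen's mean was set against that of other short genes (under 1000 bases) minus that of long genes (4000 bases or more). Pearson's r was 0.87 in 2[4]6, 0.89 in 6[4]10 and 0.86 in 2.6[8]10 (Spearman's rho 0.87, 0.91 and 0.84; 64 libraries each), and 0.86, 0.90 and 0.84 without the 2 libraries farthest out on the short-minus-long axis. With group means removed it was 0.80, 0.89 and 0.82. Both measures come from the same libraries and share their scaling and depth, so these are descriptions. Among themselves, after groups and sex were fitted, ribosomal protein genes had a mean pairwise correlation of 0.56, 0.63 and 0.52 over libraries, against 0.00 over all genes tested. Positive and negative pairs cancel in the mean over all genes, and other short or abundant genes were not compared. Since these genes move together, the counts of positive or negative changes given above are not counts of independent genes. The typical gene of the set had a residual SD of 0.107, 0.106 and 0.0888 (log2 CPM), against 0.132, 0.138 and 0.151 for the median gene. Genes of like level were not set beside the set, so its abundance is not separated from this lower spread.

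**Figure D4:**
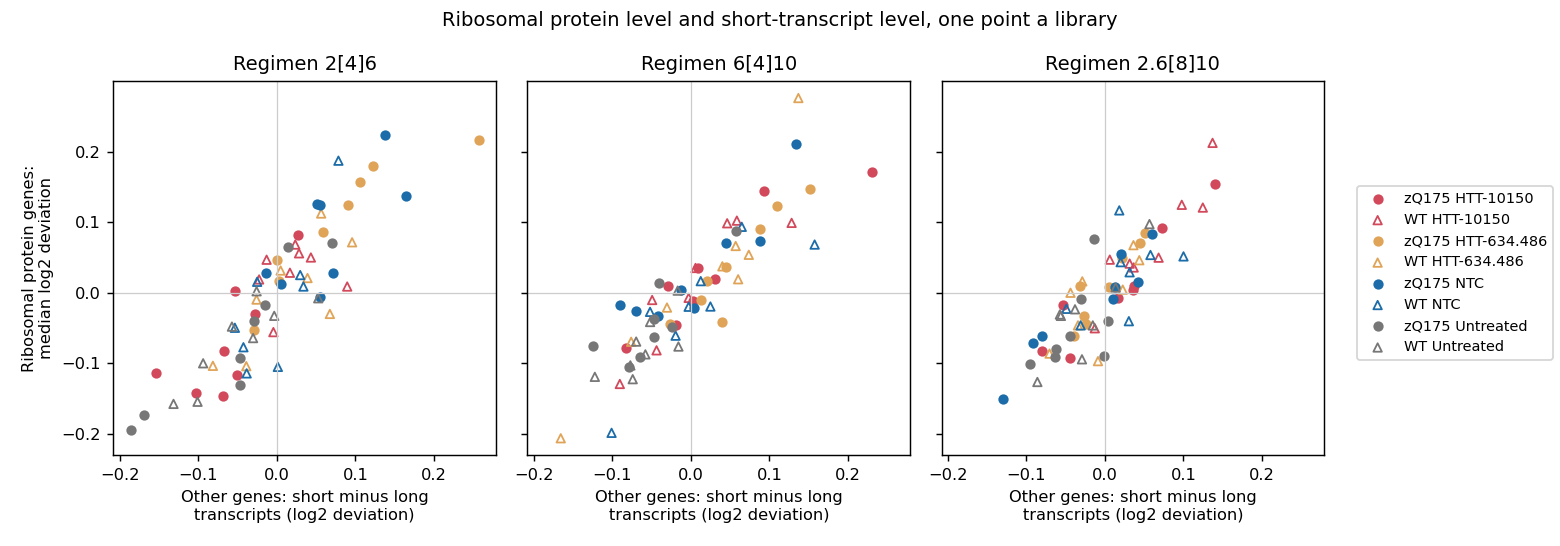
Median log2 deviation of ribosomal protein genes (vertical axis) against the short-minus-long log2 deviation of other protein-coding genes (horizontal axis), 1 point a library, 64 a regimen, filled for zQ175 and open for WT. The points rise together in each regimen, with r of 0.87, 0.89 and 0.86.

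In zQ175 mice of 2[4]6 the group medians differed along that trend, while single libraries of the groups overlapped. The short-minus-long value had a median of -0.06 in zQ175 HTT-10150 mice (-0.154 to 0.0265) and 0.07 in HTT-634.486 mice (-0.0285 to 0.257). It was 0.05 in NTC mice (-0.0142 to 0.164) and -0.04 in untreated mice (-0.186 to 0.0699). The ribosomal protein deviation had medians of -0.0982, 0.105, 0.0766 and -0.0661 in the same order. Among the HTT-10150 mice, male_1 lay highest on both measures, at 0.0814 for ribosomal protein genes and 0.0265 for short minus long. What moves libraries along the trend was not tested.

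HTT-634.486 against NTC moved no ribosomal protein gene past the threshold. In zQ175 edgeR called 0 of 79 in 2[4]6 (0.0302% of all genes), 6[4]10 (0.959%) and 2.6[8]10 (2.04%), with medians of 0.01, 0.01 and 0.03 and 0, 1 and 3 genes at an unadjusted p under 0.05. Such a p was found in 1038, 2773 and 2204 genes over all. In WT edgeR called 0 of 79 in each (0.0121%, 0.0244% and 0.751% of all genes), with medians of 0.01, 0.04 and -0.04 and 1, 2 and 4 genes at an unadjusted p under 0.05. Over all genes, 642, 1259 and 1824 had such a p. DESeq2 called 0 in all 6 comparisons. Rpl13a, for example, stood at 462.1 to 595.9 CPM in zQ175 HTT-634.486 mice of 2[4]6 (median 517), against 466.1 to 542 CPM in zQ175 NTC mice (median 501.1). The 2 groups overlapped almost whole. Rpl11 had 174.7 to 224.6 CPM in zQ175 HTT-634.486 mice, against 175.4 to 212.4 CPM in zQ175 NTC mice.

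**Figure D5:**
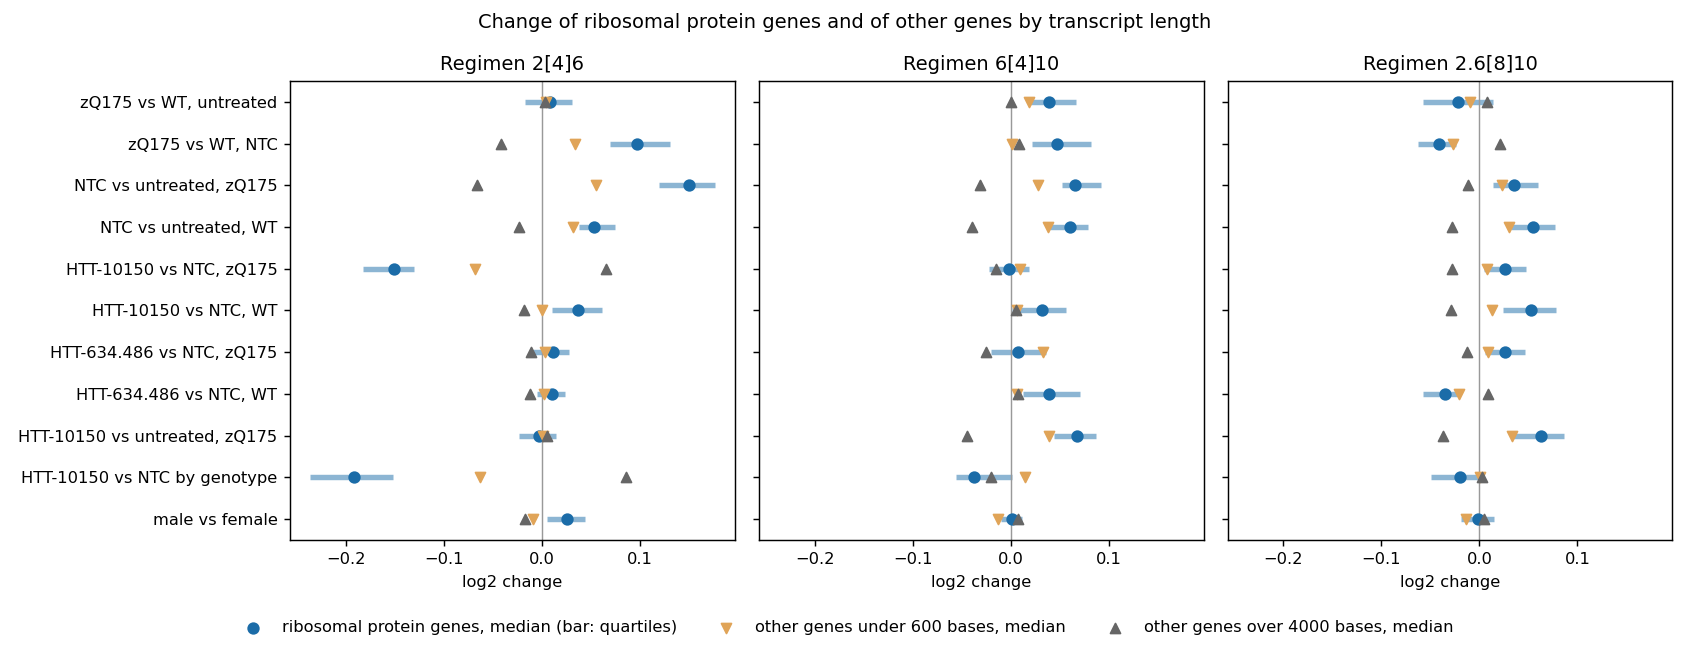
Median log2 change of the 79 tested ribosomal protein genes (blue points, bars from the lower to the upper quartile), of other protein-coding genes under 600 bases (orange) and over 4000 bases (grey), for each comparison (rows) and regimen (panels). In 2[4]6 the blue points lie at -0.15 for HTT-10150 over NTC and 0.15 for NTC over untreated in zQ175; the short and long classes lie on opposite sides of 0 there.

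Between the sexes, 5 of 79 genes were higher in males in 2[4]6 and 0 lower, that is 6.33%, against 6.71% of all genes called in either direction and 3.72% called higher in males. Rpl3 had the smallest adjusted p (log2 change 0.09, SE 0.0176, adjusted p = 0.00107), followed by Rps4x (0.07, adjusted p = 0.0151), Rps10 (0.07, adjusted p = 0.0291), Rpl5 (0.11, adjusted p = 0.0353) and Rps3a1 (0.06, adjusted p = 0.0498). In 6[4]10 and 2.6[8]10, 0 were called, against 1.15% and 1.68% of all genes, and DESeq2 called 0. At an unadjusted p under 0.05 there were 4 and 3, against 2330 of 16374 and 2330 of 15852 genes over all. Of the X-linked genes, Rps4x, Rpl10, Rpl36a and Rpl39, only Rps4x was called, and its change was 0.01 in 6[4]10 and 0.00 in 2.6[8]10. Rpl5 had 0.11, 0.08 and 0.10 in the 3 regimens, most of its counts standing on a copy. Without replicate 1, 1 gene was higher and 3 lower in males in 2[4]6. The share of all genes called in that fit is not given here.

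Other parts of the translation apparatus were given as lists. Of the 6 stalk, fusion and associated proteins, 5 fell under HTT-10150 in zQ175 mice of 2[4]6, with a median of -0.14, beside -0.15 for the ribosomal protein genes; among them were Rack1, a scaffold on the small subunit (-0.13, adjusted p = 0.0189), Rplp1 (-0.15, adjusted p = 0.0279), Fau (-0.26, adjusted p = 0.0364) and Rplp0 (-0.13, adjusted p = 0.0432). Of 15 other genes with TOP messages, 2 fell there (Eif3h, a subunit of initiation factor eIF3, and the elongation factor subunit Eef1d) and 0 rose, with a median of -0.06. Of 30 translation factors 1 rose (Gspt1, a release factor) and 0 fell, of 41 ribosome biogenesis factors 1 rose (Nop58, a core protein of box C/D small nucleolar particles) and 0 fell, and of 13 genes of mTORC1 and TOP control 0 were called; their medians were 0.01, -0.02 and 0.03. Lists from elsewhere also held calls, with none higher. Of 77 mitochondrial ribosomal proteins 4 fell (median -0.08), of 82 oxidative phosphorylation subunits 6 fell (median -0.13), and of 18 core proteasome subunits 2 fell (median -0.09). None of these lists was set against the others in a test.

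A few genes of these lists were called between the genotypes. Fbl, fibrillarin, the methyltransferase of ribosomal RNA, was higher in zQ175 than in WT in untreated mice of 2[4]6 (log2 change 0.17, adjusted p = 0.0144), 6[4]10 (0.27) and 2.6[8]10 (0.25, adjusted p = 0.000113), and under NTC in all 3 regimens (0.20, 0.26 and 0.23). Ubtf, a transcription factor of the ribosomal RNA genes, was lower in untreated zQ175 mice of 6[4]10 (-0.12, adjusted p = 0.0388) and 2.6[8]10 (-0.16, adjusted p = 0.00797). Eef1a1, an elongation factor with a TOP message, was higher in untreated zQ175 mice of 6[4]10 (0.14, adjusted p = 0.00629) and 2.6[8]10 (0.09, adjusted p = 0.0217), while Hnrnpa1, an RNA-binding protein with a TOP message, was lower in untreated zQ175 mice of 2[4]6 (-0.15, adjusted p = 0.000394). Within each of these lists of 41 biogenesis factors and 15 TOP genes, 2 genes or fewer were called in each untreated comparison, beside the 4.15%, 11.5% and 11.1% of all genes called there.

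Ribosomal protein promoters are known for a pyrimidine tract at the start site, which becomes the TOP tract of the message, so the start sites of genes that fell together under HTT-10150 in 2[4]6 are shown. RefSeq start sites were available for 64 of the 83 genes in the promoter table (GRCm38.p6). Called genes of 1 chromosome were left out of the choice of windows, whatever their adjusted p. Among the other called genes with 1 entry in that table, the 6 of smallest adjusted p are shown. Capitals mark runs of at least 5 pyrimidines. The windows shown run from 30 bases before to 30 after the start on the gene's own strand. They lie at chr7:45128716-45128775 (Rpl13a, minus strand), chr4:136053364-136053423 (Rpl11, minus), chr4:86857338-86857397 (Rps6, minus), chr7:4792935-4792994 (Rpl28, plus), chr8:123102320-123102379 (Rpl13, plus) and chr9:120571487-120571546 (Rpl14, plus).
Rpl13a: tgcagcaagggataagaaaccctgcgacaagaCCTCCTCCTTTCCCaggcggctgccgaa
Rpl11: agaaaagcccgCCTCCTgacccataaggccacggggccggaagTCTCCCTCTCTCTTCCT
Rps6: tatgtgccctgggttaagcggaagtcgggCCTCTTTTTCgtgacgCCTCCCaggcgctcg
Rpl28: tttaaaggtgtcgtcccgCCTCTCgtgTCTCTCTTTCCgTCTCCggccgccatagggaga
Rpl13: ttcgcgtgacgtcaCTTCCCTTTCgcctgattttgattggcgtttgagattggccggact
Rpl14: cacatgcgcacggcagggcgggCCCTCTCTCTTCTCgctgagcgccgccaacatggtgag
All 6 windows hold a run of 10 to 17 pyrimidines, but not all of these runs span the annotated start. The longest run of Rpl13 lies before the start. Those of Rpl13a and Rpl11 lie after it, and the Rpl11 run reaches the edge of the window shown. A run of 10 or more on the coding strand stood within 30 bases of the start in 25 of the 64 genes (39.1%), against 12.6% of 27025 genes in the table. CTTTC stood on the coding strand within 50 bases of the start in 51.6% of the 64 genes against 14.6% of all, and CTTCC, which can overlap it, in 45.3% against 22.2%; on either strand the shares were 64.1% against 26.2% and 67.2% against 41.1%. CCGGAAG, a core of sites for ETS factors, stood on either strand in the whole window from 250 bases before to 50 after the start in 39.1% against 9.93%, and CCATCTT, part of sites for the factor YY1, in 15.6% against 7.28%. These matches describe letters in a window and say nothing of which factor binds.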

How the data were processed

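Polyadenylated RNA from hippocampus was sequenced in 192 libraries. The authors deposited expected counts (estimated reads per gene) made with RSEM and GRCm38, per the submitters' processing notes. No source used here names an aligner, an annotation release or a strand setting. All values were whole numbers, so none was rounded. Features without a mouse gene identifier (7, with 6.85e-06 percent of counts) were left out. Symbols, positions and lengths came from GENCODE vM21, in which 40254 of 41128 identifiers were found.

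Each regimen was fitted on its own (64 libraries; 8 groups and sex) with edgeR 4.0.16 in R 4.3.3: filterByExpr by group left 16575 genes in 2[4]6, 16374 in 6[4]10 and 15852 in 2.6[8]10, with TMM factors, the quasi-likelihood test and Benjamini-Hochberg adjustment over all genes tested. Called means an adjusted p under 0.05, with edgeR where no tool is given. The named genes are the up to 4 called ribosomal protein genes of smallest adjusted p in each comparison, a set of genes always given, the paralogs, the highest and lowest levels, up to 4 called genes of each other list, and Htt; Rpl28, Rpl13, Rpl14 and the genes in the paragraph on copies were named for their sequences or copies. Some genes that this rule names are not reported here. Members and lists were chosen with earlier results of these data known. Copies were transcripts of other genes at least 95 percent identical over at least 200 bases and 80 percent of the shorter transcript. The length offset is a spline with 4 degrees of freedom, fitted for each library on genes outside the set. It was fitted on the log10 of the median transcript length of a gene, and not on the longest.

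Alternatives were RLE factors, DESeq2 1.42.0, no filter, the length offset, blocks by replicate number or by the number in the library name (limma 3.58.1), and left-out libraries; summing copies and fitting each sex alone were chosen after seeing the data. The procedure was tested on simulated data. Libraries of 1 group differed by more than sampling noise (lowest chi-square per gene 2.46 over 672 pairs). Depth (8441632 to 65748954 counts a library) ran over a wide range, and precision was taken from the spread between libraries. Each library is taken as 1 mouse, which replicate numbers imply but no label states; otherwise p-values measure a spread that may be technical.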

Additional observations from a re-analysis of the deposited data

Results flagged for a closer look

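For 24 group shares and for 14 genes in the 8 groups of 2[4]6, the highest and lowest of 8 libraries were compared with the rest by the gap to the nearest library divided by the group's range, against Dixon's limit for 8 values. In all, 6 values passed, and chance passes about 1 group in 20. In the zQ175 NTC group of 6[4]10, female_4 held 1.404% of its counts in ribosomal protein genes, above the other 7 mice. In the WT NTC group of 2[4]6, female_3 was highest for Rps3 (312 CPM) and Rps4x (235.3 CPM). In the zQ175 NTC group of 2[4]6, male_1 was highest for Rpl38 (104.2 CPM) and Rps29 (158.8 CPM). In the untreated zQ175 group of 2[4]6, male_2 was lowest for Rpl28 (112.5 CPM).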

How the results depend on the processing

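Of 472 counts recomputed over 33 comparisons, 424 stayed within 1.5 times the value reported. Most of these comparisons had 0 calls, and a 0 that stayed 0 is among the 424. Of 472 medians 456 moved by less than 1 SE of a gene. Called genes gave 626 values over the alternatives, of which 348 kept the call and 278 did not. No called gene changed sign in any alternative. HTT-10150 over NTC in zQ175 of 2[4]6 (31 calls) gave 19 with no filter on low counts, 0 with the length offset, 0 in females, 3 in males and 0 to 23 without 1 replicate number. NTC over untreated zQ175 of 2[4]6 (0 calls) gave 34 with DESeq2 and 0 to 30 without 1 replicate number, and the HTT-10150 by genotype term of 2[4]6 (0 calls) gave 14 with DESeq2. zQ175 over WT under NTC in 2[4]6 (8 calls) gave 5 with the length offset, 0 in females, 5 in males and 0 to 11 without 1 replicate number. Male over female in 2[4]6 (5 calls) gave 2 with the library-number block and 2 to 11 without 1 replicate number. The rest concerned 1 or 2 genes: 1 call with DESeq2 in zQ175 over WT untreated of 6[4]10, zQ175 over WT under NTC of 2.6[8]10 and HTT-10150 over untreated zQ175 of 2.6[8]10, 1 with RLE factors in zQ175 over WT under NTC of 2.6[8]10, and 1 with the length offset in HTT-634.486 over NTC in zQ175 of 6[4]10. The single calls of zQ175 over WT under NTC in 6[4]10 and of HTT-10150 over NTC in zQ175 of 2.6[8]10 gave 0 with no filter, in females and in males, and 0 to 1 and 0 to 0 without 1 replicate number; without 1 replicate number the counts were 0 to 1 for zQ175 over WT under NTC in 2.6[8]10 and for HTT-10150 over NTC in WT of 2.6[8]10. The share of all genes called in each alternative is not given here. A change in these counts is therefore not told apart from a change over all genes. The cause was not tested.

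With a replicate block, whose numbers did not pair the mice (mean correlation of same-numbered mice -0.01 in 2[4]6, and 0.01 in both later regimens), HTT-10150 over NTC in zQ175 of 2[4]6 gave 47 calls, and 1 with the replicate block and length offset together; the block gave 1, 2, 1 and 1 calls in zQ175 over WT untreated of 6[4]10, zQ175 over WT under NTC of 6[4]10 and of 2.6[8]10, and HTT-10150 over untreated zQ175 of 2.6[8]10, and with the length offset 2, 2 and 1 in zQ175 over WT untreated and under NTC and HTT-634.486 over NTC in zQ175, all of 6[4]10. No replicate block was fitted for male over female, since each replicate number was counted within a sex.

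Without mitochondrially encoded genes in the denominator the mean share was 1.35%. By the longest transcript, other genes under 600 bases (96 in place of 467) had a median of -0.18 in HTT-10150 over NTC in zQ175 of 2[4]6, and those of 600 to 1000 bases -0.13. With 8 mice a group the median SE of 0.0526 in 2[4]6 limits which changes can be called.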
